A study of Mus musculus with 14 samples.

Results

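Hematopoietic lineage transcription factors are the DNA-binding proteins, and their partners and inhibitors, that keep blood stem and progenitor cells immature or commit them to a lineage. A list of 39 such genes was followed here across mouse hematopoietic progenitor cells (HPCs) that carried an N-Myc or a control retrovirus. The genes were chosen by symbol, and 36 of the 39 were listed in the array platform's annotation, each with 1 probe set, among 22206 probe sets tested. Hoxa7, Hoxa9 and Runx2 were not listed there and were not analysed here.

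The cells were lineage-negative bone marrow cells that were enriched on magnetic columns, cultured, and exposed to retroviral supernatant of GP+E86 packaging cells. The Ctrl virus was MSCV-IRES-YFP, which encodes a yellow fluorescent protein, and the NMyc virus was MSCV-NMyc-IRES-YFP, which adds N-Myc. Both are driven by the viral promoter, so all groups share culture, infection and the YFP marker. The labels do not say whether transduced cells were sorted before RNA was taken, nor give the age or sex of the mice. The mice were Hom, Het or WT for a mutant allele of Polg, whose product replicates mitochondrial DNA, and WT is written as Polgwt/wt. The 14 Affymetrix arrays fell into Hom-NMyc (n = 2), Het-NMyc (n = 2), WT-NMyc (n = 2), Hom-Ctrl (n = 2), Het-Ctrl (n = 3) and WT-Ctrl (n = 3). The labels call the arrays biological replicates without saying whether each came from another mouse, so the p-values reflect only how far these samples vary, which may be technical.

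Blood formation is directed by sets of factors that act in combination. HOXA and MEIS proteins with MECOM maintain self-renewing cells, and a group of factors around TAL1, LMO2, GATA2, RUNX1, ERG and FLI1 binds shared enhancers in stem and progenitor cells. GATA1, KLF1, GFI1B and NFE2 act in red cells and megakaryocytes, while PU.1 (Spi1), C/EBP proteins, GFI1 and IRF8 act in granulocytes and monocytes. Ikaros-family proteins are best known in lymphocytes, and ID proteins block DNA binding by E proteins, the basic helix-loop-helix factors that partner TAL1 and LYL1. N-Myc is itself a basic helix-loop-helix factor, which binds the sequence CACGTG with MAX.

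Mycn, the gene of N-Myc, lay between 12.15 and 12.38 on the log2 scale in the 6 NMyc arrays, against 7.43 to 7.76 in 7 of the 8 Ctrl arrays. The remaining array, Hom-Ctrl replicate 1, read 9.77, above all other Ctrl arrays and below every NMyc array, so results that rest on Hom-Ctrl are also given without it. The spread between positive and negative control probe sets was 4.041 to 4.521 in NMyc arrays and 3.605 to 4.169 in Ctrl arrays. In runs 2 and 3 of consecutive sample codes, which hold both viruses, no Ctrl array exceeded 3.995, so the groups were separate there. The median of the negative control sets was 4.391 to 4.698 in NMyc and 4.47 to 4.866 in Ctrl arrays. The part of this in the values of dim factors such as Irf4 was not tested. Between arrays, the correlation across probe sets was 0.958 to 0.994. Among stem and progenitor markers, Kit and Cd34 exceeded the negative control sets' median in 14 of 14 arrays, while Flt3 did so in 7 and Procr in 6. All 12 measured neutrophil secondary granule genes and all 13 monocyte and macrophage genes lay above it in every array, although the cells had been lineage-negative when collected. Of the 36 lineage factors, 35 were above that level in 14 of 14 arrays and Id3 in 5.

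More of these factors were lower than higher in NMyc cells. Averaged over Hom, Het and WT, 16 of the 36 were called in limma at an adjusted p under 0.05, 14 of them lower and 2 higher in NMyc cells. The background was 33.6% of all probe sets called in either direction, 15.5% lower and 18.2% higher. The share called lower thus lay above the background and the share called higher below it. The median difference of the 36 was -0.12 on the log2 scale, against -0.0216 over all probe sets. The list was chosen with earlier results of these data known, so comparing its counts with the background is not independent of that choice. In 7 of the 36 the 6 NMyc arrays did not overlap the 8 Ctrl arrays, which is near the background of 17.1%. All 7 (Id2, Klf2, Klf6, Meis1, Bcl6, Cebpd and Erg) were lower in NMyc cells. Without Hom-Ctrl replicate 1, which leaves 1 Hom-Ctrl array, all 16 kept their direction. In a mixed population, fewer cells of a type and less RNA per cell cannot be told apart.

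**Figure D1:**
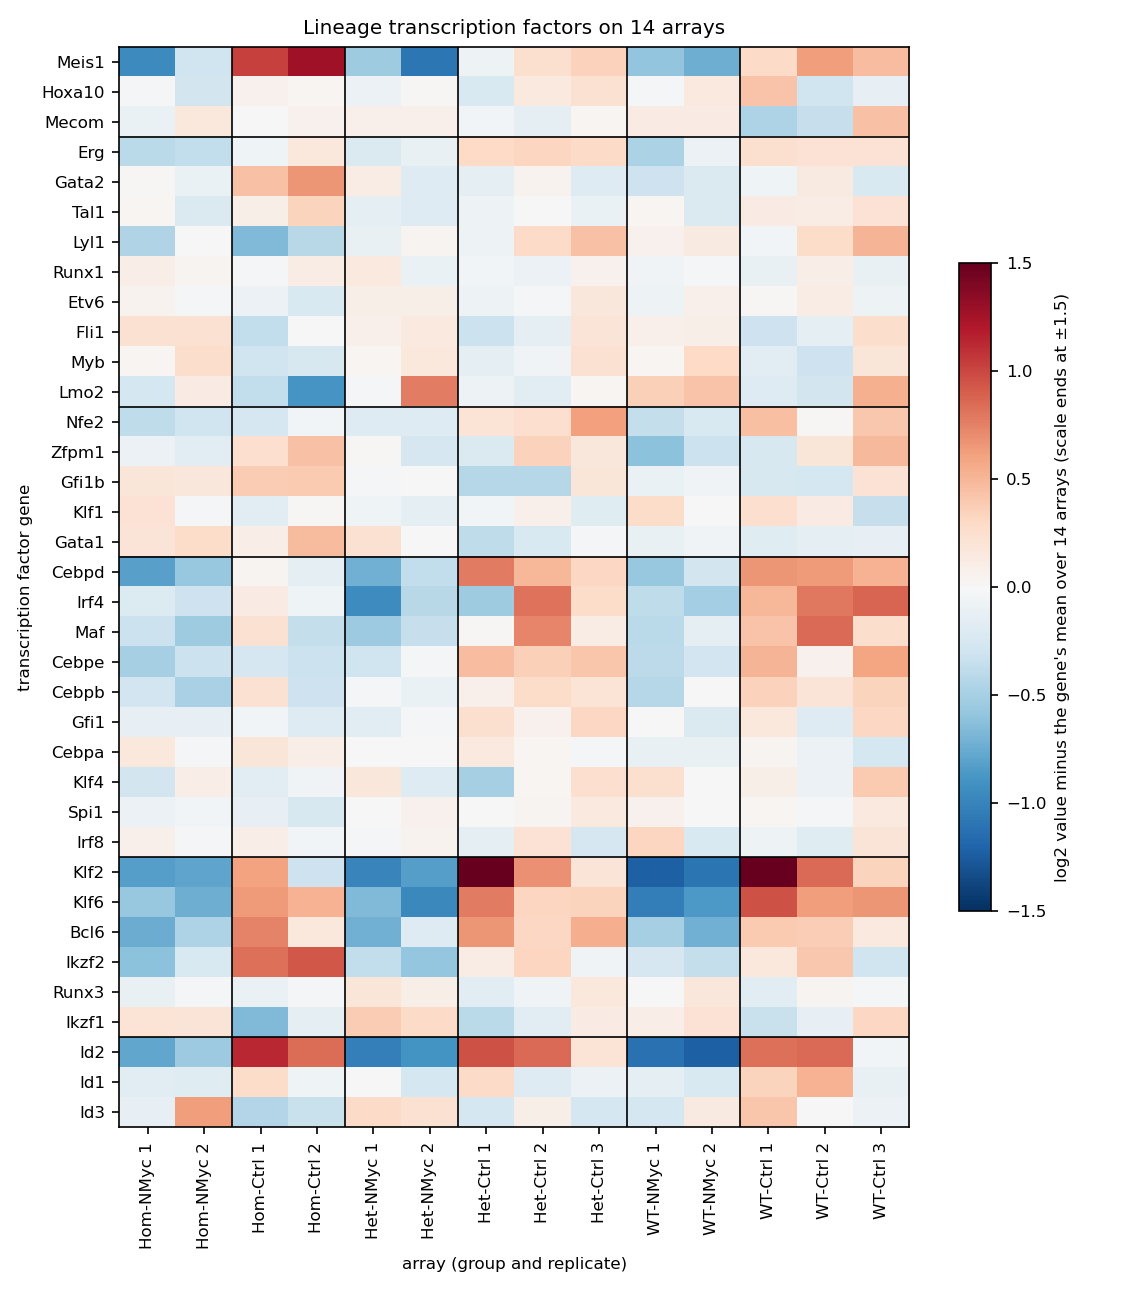
Log2 value of each of the 36 measured factors on each of the 14 arrays, as the difference from the gene's own mean over all arrays (colour, ending at 1.5 either way). Rows are grouped by role and columns by group and replicate; Meis1, Klf2, Klf6, Bcl6 and Id2 are blue in all 6 NMyc columns, and most rows of the stem-cell and erythroid blocks are pale throughout.

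**Figure D2:**
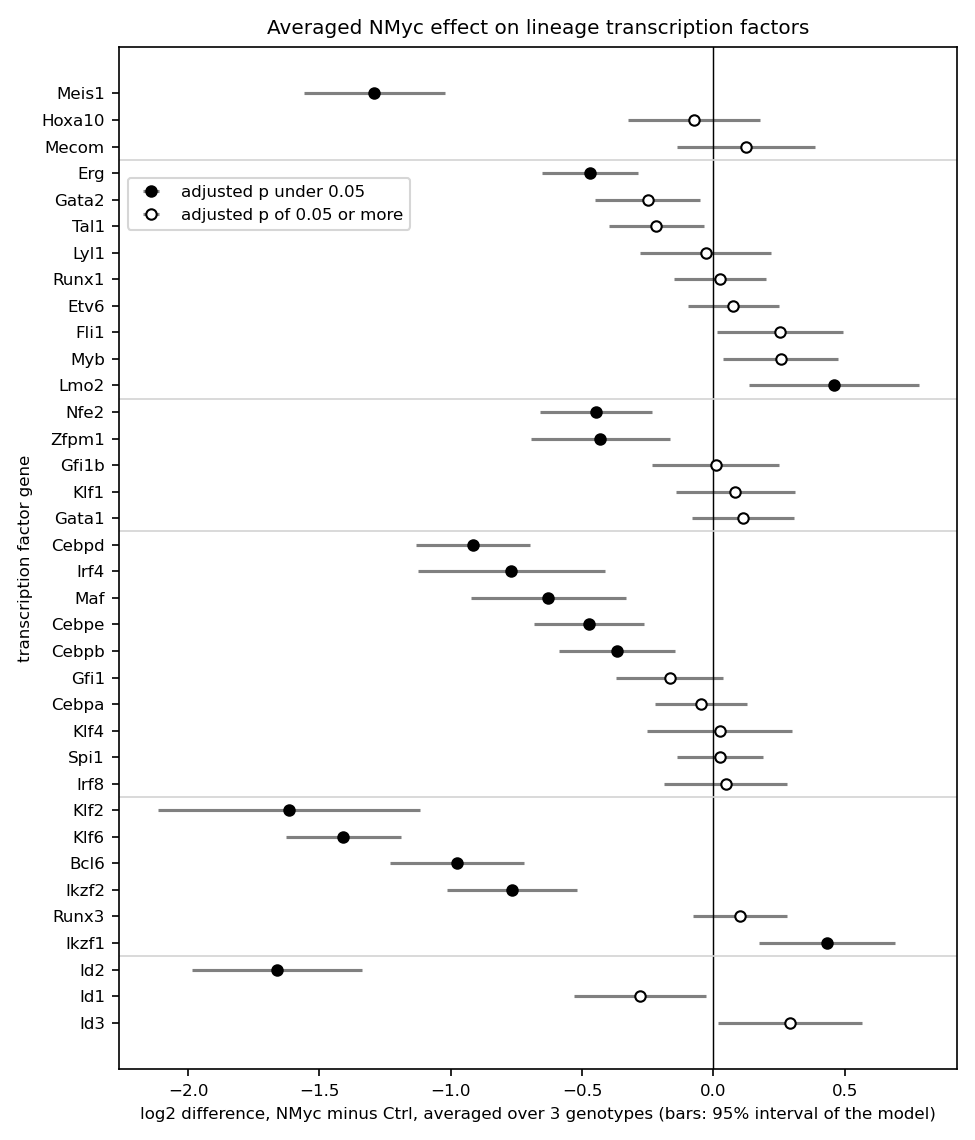
Averaged NMyc minus Ctrl log2 difference of each factor, with the 95% interval of the fit as the bar, grouped by role. Filled points are the 16 called at an adjusted p under 0.05; 14 of them lie left of 0 and Lmo2 and Ikzf1 lie right of it.

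The factor with the widest averaged fall was an inhibitor. Id2, which sequesters E proteins, read 9.09, 9.36 and 9.78 (lowest, median and highest) in NMyc arrays, against 10.28, 11.16 and 11.45 in Ctrl arrays. Every NMyc array lay below every Ctrl array. The difference was -1.66 (SE 0.15), a 3.16-fold lower level, with an adjusted p of 4.3e-07. Id1, from the same family, was not called (-0.28, adjusted p = 0.0826), and Id3, at background in most arrays, is given no fold. Of the E proteins that ID proteins bind, named here after their values were seen, Tcf3 (0.40) and Tcf12 (0.77) were called higher in NMyc cells and Tcf4 was not called (adjusted p = 0.997).

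Among the factors best known from lymphocytes, with the Krüppel-like factors KLF2 and KLF6 and the repressor BCL6, 4 of 6 were lower and 1 was higher, and the median difference was -0.87. Klf2, which keeps lymphocytes quiescent, read 6.26, 6.58 and 6.71 in NMyc arrays, against 7.18, 8.13 and 9.21 in Ctrl arrays. The groups did not overlap, but the Ctrl arrays spread far more widely than the NMyc arrays. The difference was -1.62 (SE 0.23, 3.07-fold lower, adjusted p = 4.55e-05). Klf6, a broadly expressed member of the same family, had 8.63, 8.87 and 9.10 in NMyc arrays, against 9.98, 10.30 and 10.62 in Ctrl arrays. This was a clear gap with little spread on either side, and Klf6 had the smallest p of the 36 (-1.41, SE 0.10, 2.65-fold lower, adjusted p = 4.98e-08). Bcl6, a repressor of germinal-centre B cells that is also expressed in myeloid cells, read 6.03, 6.16 and 6.58 in NMyc arrays, against 6.91, 7.15 and 7.51 in Ctrl arrays. Its groups were again separate (-0.98, SE 0.12, 1.97-fold lower, adjusted p = 8.63e-06).

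The Ikaros family moved both ways. Ikzf2 (Helios) read 8.46, 8.71 and 8.85 in NMyc arrays, against 8.78, 9.32 and 10.01 in Ctrl arrays. The ranges met at the lower edge of the Ctrl arrays, and the difference was -0.77 (SE 0.12, adjusted p = 7.09e-05). Ikzf1 (Ikaros), a factor of lymphoid specification, read 10.97, 11.08 and 11.25 in NMyc arrays, against 10.21, 10.72 and 11.17 in Ctrl arrays. It was 1.35-fold higher (0.43, SE 0.12, adjusted p = 0.0109), with overlap at the top of the Ctrl arrays. That call was lost with the run of consecutive sample codes as a block (0.25, adjusted p = 0.0752). Runx3 was not called (0.10, 95% interval -0.08 to 0.28).

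**Figure D3:**
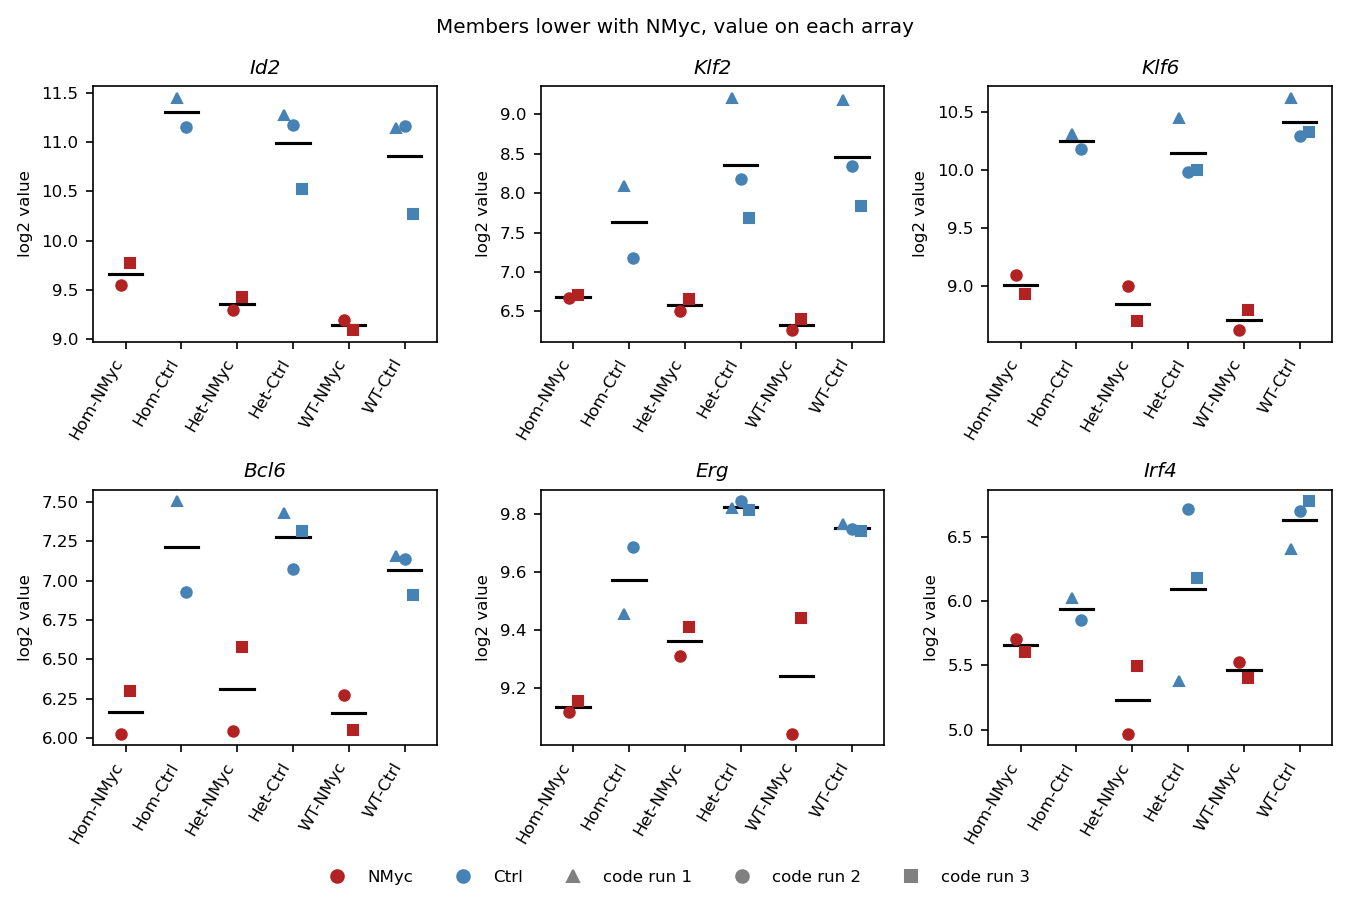
Log2 value on each array for 6 factors that were lower with NMyc, by group (x axis; NMyc red, Ctrl blue), with the group mean as a line and the run of consecutive sample codes as the symbol. In the panels for Id2, Klf2, Klf6, Bcl6 and Erg every red point lies below every blue point, and in the panel for Irf4 they overlap.

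In the HOX, MEIS and MECOM group 1 of 3 was called. Meis1, the cofactor of HOXA proteins in stem cells and in leukemia, read 6.31, 6.73 and 7.09 in NMyc arrays, against 7.32, 7.80 and 8.66 in Ctrl arrays. No NMyc array reached the lowest Ctrl array, and the difference was -1.29 (SE 0.13, 2.45-fold lower, adjusted p = 7.97e-07). Hoxa10 (-0.07, 95% interval -0.32 to 0.18) and Mecom (0.12, -0.14 to 0.39), a zinc-finger factor of long-lived stem cells, were not called.

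The stem and progenitor core held 9 measured genes, of which 1 was lower, 1 was higher and the median difference was 0.03. Erg, an ETS factor needed by stem cells, read 9.04, 9.23 and 9.44 in NMyc arrays, against 9.46, 9.76 and 9.84 in Ctrl arrays. The groups were separate by a narrow margin, and the fall was 1.38-fold (-0.47, SE 0.09, adjusted p = 0.0004). Lmo2, the bridging protein of the TAL1 complex, read 7.58, 8.09 and 8.62 in NMyc arrays, against 6.97, 7.68 and 8.39 in Ctrl arrays. These ranges overlapped over most of their length, and the 1.37-fold rise (0.46, SE 0.15, adjusted p = 0.0285) lost its call in 8 of 23 alternative settings. Gata2 (-0.25, adjusted p = 0.0505) and Tal1 (-0.22, adjusted p = 0.0632), a zinc-finger and a helix-loop-helix factor of the same complex, lay just outside the threshold on the lower side. Myb (0.26, adjusted p = 0.0684), which drives progenitor proliferation, and Fli1 (0.25, adjusted p = 0.103) lay outside it on the higher side. The other 3, Lyl1 (95% interval -0.28 to 0.22), Runx1 (-0.15 to 0.20) and Etv6 (-0.10 to 0.25), had intervals around 0.

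Of the 5 erythroid and megakaryocyte factors 2 were lower. Nfe2, needed for platelet production, read 8.95, 9.08 and 9.15 in NMyc arrays, against 9.09, 9.57 and 9.96 in Ctrl arrays. Only the lowest Ctrl array, Hom-Ctrl replicate 1, fell within the NMyc range, and the difference was -0.45 (SE 0.10, adjusted p = 0.00217). Zfpm1, the gene of the GATA1 cofactor FOG1, differed by -0.43 (SE 0.12, adjusted p = 0.0127). The other 3 were not called: Gata1, the main erythroid and megakaryocyte GATA factor (0.11, 95% interval -0.08 to 0.31), Klf1 (0.08, -0.14 to 0.31) and Gfi1b (0.01, -0.23 to 0.25). In the same comparison all 11 measured megakaryocyte and platelet genes were lower, with a median of -1.68, among them Pf4 (-2.75) and Itgb3 (-1.68). Their summed level, on the log2 scale, was 11.88 to 12.15 over the NMyc arrays and 13.52 to 13.87 over the Ctrl arrays. Of 10 measured erythroid genes 2 were lower and 1 higher. The part of these cells in the values of Nfe2 and Zfpm1 was not tested.

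Of the 10 myeloid factors 5 were lower: Cebpd, Irf4, Maf, Cebpe and Cebpb. None was higher, and the median of the 10 was -0.27. Cebpd, a C/EBP protein of granulocytes and inflammation, read 8.53, 8.78 and 9.07 in NMyc arrays, against 9.21, 9.85 and 10.12 in Ctrl arrays. The arrays did not overlap (-0.91, SE 0.10, 1.89-fold lower, adjusted p = 3.01e-06). Cebpe, which is required for secondary granules, read 8.71, 8.89 and 9.19 in NMyc arrays, against 8.88, 9.59 and 9.80 in Ctrl arrays. The overlap came from the Hom-Ctrl arrays, which lay with the NMyc arrays, and the difference was -0.47 (SE 0.10, adjusted p = 0.00118). Irf4 (-0.77, SE 0.17), a factor of dendritic cells, macrophages and lymphocytes, and Maf (-0.63, SE 0.14), a macrophage factor, were called with overlapping arrays (adjusted p = 0.00164 and 0.00192). Cebpb, used in emergency granulopoiesis, had the smallest difference of the 5 (-0.37, SE 0.10, adjusted p = 0.0113), and its call was lost without WT-NMyc replicate 1 (-0.30, adjusted p = 0.0522).

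The other 5 of the 10 myeloid factors were not called. Cebpa, which starts granulocyte commitment, differed by -0.05 (95% interval -0.22 to 0.13), Irf8 by 0.05 (-0.19 to 0.28), Gfi1 by -0.17 (-0.37 to 0.04) and Klf4 by 0.02 (-0.25 to 0.30). Spi1 differed by 0.02 (-0.14 to 0.19), but its probe set lay above the 99th percentile of all tested values (11.89) in every array, near the top of the measured range. In the same comparison 11 of 12 secondary granule genes were lower (median -1.17, Mmp9 -3.05 and Ltf -2.02), 11 of 13 monocyte and macrophage genes were lower (median -1.22), and 4 of 7 primary granule genes were higher (median 0.444, Mpo 0.51 and Elane 0.47) with none lower. By genotype, 4 of the 7 primary granule genes were higher in Hom and 3 in WT cells. In Het cells 0 were higher and 1 was lower (median 0.169). The summed level of secondary granule genes was 14.33 to 14.50 over the NMyc arrays and 14.84 to 15.37 over the Ctrl arrays on the log2 scale. Their part in the values of Cebpd, Cebpe and Cebpb was not tested.

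Of a second list of 60 blood transcription factors, 54 were measured, 14 were lower and 9 higher, with a median of -0.0819. The 4 with the smallest p were Nfil3 (-1.15), a bZIP factor of natural killer cells, Klf10 (-1.22), Irf2 (-0.96) and Cbfa2t3 (0.89), a corepressor in TAL1 complexes. Among 7 measured stem and progenitor markers, 3 were lower, including Slamf1 (-1.55) and Cd34 (-0.97), and Cd48 (0.48) was higher. Mast cell and basophil genes were lower in 10 of 13, the 4 with the smallest p being Tpsb2 (-3.77), Gzmb (-3.20), Cma1 (-1.81) and Slc18a2 (-1.32), and 1 was higher, Ms4a2 (0.83), named after its value was seen. No stromal or endothelial marker of 9 was called.

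**Figure D4:**
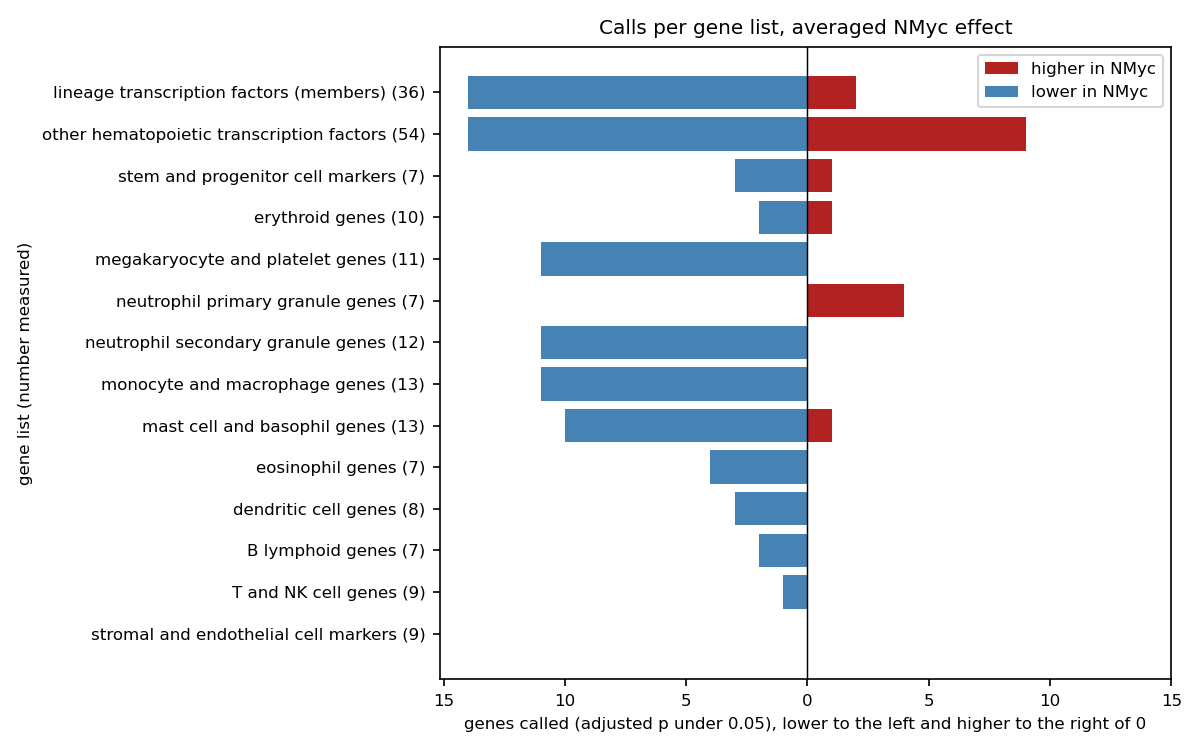
Number of genes called higher (right, red) or lower (left, blue) in NMyc cells for each gene list, with the number measured in brackets, for the averaged NMyc effect at an adjusted p under 0.05. The lineage factors stand at 14 lower and 2 higher of 36; megakaryocyte, secondary granule and monocyte lists have bars to the left only, and primary granule genes to the right only.

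The promoters of the 5 factors with the widest averaged falls are printed because an N-Myc recognition sequence lies in some of them and not in others. Each line is the RefSeq window from 250 bases before to 50 after a transcription start (GRCm38.p6, 5′ to 3′ on the gene's strand). The windows are chr12:25096043-25096342 (minus strand) for Id2, chr8:72318812-72319111 (plus) for Klf2, chr13:5861239-5861538 (plus) for Klf6, chr11:19018920-19019219 (minus) for Meis1 and chr16:23988803-23989102 (minus) for Bcl6. The capitals mark CACGTG, the N-Myc and MAX motif, and GGAAGT on either strand, an ETS-type motif bound by proteins such as PU.1, ERG and FLI1.
Id2: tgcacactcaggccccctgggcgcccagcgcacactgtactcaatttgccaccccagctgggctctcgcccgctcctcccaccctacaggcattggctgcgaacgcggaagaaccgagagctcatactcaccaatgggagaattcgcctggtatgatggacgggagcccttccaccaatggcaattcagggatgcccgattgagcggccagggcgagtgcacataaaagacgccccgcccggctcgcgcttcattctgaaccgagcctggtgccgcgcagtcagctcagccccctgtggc
Klf2: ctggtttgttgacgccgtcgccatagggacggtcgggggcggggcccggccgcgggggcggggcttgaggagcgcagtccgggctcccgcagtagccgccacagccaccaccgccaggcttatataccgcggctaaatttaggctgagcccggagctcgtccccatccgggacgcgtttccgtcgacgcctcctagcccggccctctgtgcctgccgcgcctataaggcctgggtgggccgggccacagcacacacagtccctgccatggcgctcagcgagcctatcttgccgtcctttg
Klf6: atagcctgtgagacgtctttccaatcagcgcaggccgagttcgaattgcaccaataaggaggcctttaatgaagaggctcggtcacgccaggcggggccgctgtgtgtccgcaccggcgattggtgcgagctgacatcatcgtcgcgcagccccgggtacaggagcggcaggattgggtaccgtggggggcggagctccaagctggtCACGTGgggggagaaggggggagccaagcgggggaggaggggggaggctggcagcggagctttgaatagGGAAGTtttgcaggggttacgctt
Meis1: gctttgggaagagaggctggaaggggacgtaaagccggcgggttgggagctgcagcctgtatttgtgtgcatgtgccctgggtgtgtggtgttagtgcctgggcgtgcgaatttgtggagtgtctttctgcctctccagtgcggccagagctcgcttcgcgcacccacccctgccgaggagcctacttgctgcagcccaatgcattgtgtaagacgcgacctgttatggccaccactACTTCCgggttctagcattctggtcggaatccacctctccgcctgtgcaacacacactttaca
Bcl6: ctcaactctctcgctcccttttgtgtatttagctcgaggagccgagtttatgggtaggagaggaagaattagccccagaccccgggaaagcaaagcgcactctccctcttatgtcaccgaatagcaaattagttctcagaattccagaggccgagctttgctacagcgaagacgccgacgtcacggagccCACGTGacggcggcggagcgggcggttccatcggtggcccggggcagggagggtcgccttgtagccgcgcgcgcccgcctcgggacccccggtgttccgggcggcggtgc
CACGTG, which is its own reverse complement, was found in the windows of Klf6 (at base -43, counted from the start) and Bcl6 (at -60), and not in those of Id2, Klf2 and Meis1. A second Bcl6 window, from another start, held none of the motifs. Of 36 measured factors 27 had a window, and 4 of their 39 windows held CACGTG, against 7.15% of all 32851 windows. Klf4 (-182) and Runx1 (-71), neither called in the averaged comparison, were the other two. GGAAGT, in 23.8% of all windows, was in 4 member windows (Hoxa10, Klf6, Meis1 and Zfpm1). AGATAA on either strand, a GATA-type motif in 11.2% of all windows, was in 2 (Erg and Tal1). The motifs do not overlap each other in these windows, and a match describes the letters only.

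Taken by genotype, the NMyc effect was downward in each. In Hom cells 7 of 36 factors were lower and none higher, against a background of 7.01% lower and 10.7% higher, and 5 were lower without Hom-Ctrl replicate 1 (4.91% of all probe sets). In Het cells 12 were lower and none higher (background 8% lower and 11.1% higher). In WT cells 11 were lower and none higher (background 9.05% lower and 10.1% higher). Meis1, Cebpd, Bcl6, Klf6 and Id2 were lower in all 3 genotypes, 5 of 36, against 3.94% of all probe sets.

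Among these 5, Id2 and Bcl6 differed least in size between genotypes. Id2 differed by -1.64 in Hom (adjusted p = 0.000792), -1.63 in Het (adjusted p = 0.000307) and -1.72 in WT cells (adjusted p = 0.0002). Klf6 differed by -1.23, -1.29 and -1.70 and Bcl6 by -1.05, -0.96 and -0.91 in Hom, Het and WT cells. For Cebpd the values were -0.64 in Hom (adjusted p = 0.0253), -1.07 in Het and -1.03 in WT cells. Meis1 differed by -1.77 in Hom (adjusted p = 0.000111), -0.98 in Het (adjusted p = 0.00359) and -1.12 in WT cells (adjusted p = 0.00128), and the Hom-Ctrl arrays were the highest of the Ctrl arrays. Some of these calls rested on 1 array: without Het-NMyc replicate 2 the Meis1 difference in Het cells was -0.70 (adjusted p = 0.0946), and without Hom-Ctrl replicate 1 the differences in Hom cells were -0.56 for Cebpd (adjusted p = 0.155) and -0.76 for Bcl6 (adjusted p = 0.0616). Bcl6 also lost its call in Het cells without Het-NMyc replicate 1 (-0.70, adjusted p = 0.0796) and in WT cells without WT-NMyc replicate 2 (-0.80, adjusted p = 0.068), and Cebpd in Hom cells without either Hom-NMyc array. Id2 and Klf6 kept the call in all 3 genotypes with each array left out in turn.

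Other factors passed in some genotypes only, without a tested difference between genotypes. Klf2 was called in Het (-1.78, adjusted p = 0.00428) and WT (-2.12, adjusted p = 0.00116) and not in Hom cells (-0.95, SE 0.43, adjusted p = 0.156). Cebpe was called in Het (-0.57) and WT (-0.73) and not in Hom cells (-0.12, adjusted p = 0.722). Erg, Nfe2, Irf4 and Maf were also called in Het and WT cells and not in Hom cells. Ikzf2 was called in Hom (-1.30, adjusted p = 0.000612) and Het cells (-0.60, adjusted p = 0.0415) and not in WT cells (-0.40, adjusted p = 0.197), and Gata2 in Hom cells alone (-0.59, adjusted p = 0.0247; 0.05 in Het and -0.21 in WT cells). Without Hom-Ctrl replicate 1 the differences in Hom cells were -1.35 for Ikzf2 (adjusted p = 0.0057), -0.71 for Gata2 (adjusted p = 0.0439), -1.90 for Meis1, -1.49 for Id2 and -1.17 for Klf6, all called, and -0.50 for Klf2 (adjusted p = 0.639) and -0.08 for Cebpe (adjusted p = 0.887). Lmo2, Ikzf1, Zfpm1 and Cebpb were called in no single genotype. The single-genotype calls of Erg, Nfe2, Irf4, Maf and Cebpe, of Ikzf2 in Het and of Gata2 in Hom cells were each lost with at least 1 array left out, whereas those of Klf2 were not. The counts in WT and Het cells dropped most without an NMyc array of that genotype, which leaves only 1 in its group. The share of all probe sets called moved too. With single arrays left out it was 10.7% to 19.3% in WT and 11.2% to 20.4% in Het cells. These losses are therefore not shown to be particular to the factors.

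The tests of the difference itself made no call among the 36. The NMyc effect in Hom against that in WT cells was called for 0.0811% of all probe sets, in Hom against Het cells for 0.0315%, and in Het against WT cells for 0. At an unadjusted p under 0.05 the numbers of factors were 4, 3 and 0. Ikzf2 fell furthest in Hom relative to WT cells (-0.90, unadjusted p = 0.00686, limma adjusted p = 0.34). Cebpe differed by 0.61 and Irf4 by 0.88 in the same test, and Meis1 by -0.80 and Gata2 by -0.65 between Hom and Het cells, none of them called. Without Hom-Ctrl replicate 1 the 36 again held no call, with Ikzf2 at -0.96 (adjusted p = 0.434), Cebpe at 0.65 and Irf4 at 0.97 for Hom against WT cells, and Meis1 at -0.92 and Gata2 at -0.76 for Hom against Het cells.

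Within Ctrl cells, 5 factors were called between Hom and WT, with 2 higher and 3 lower in Hom cells. The background was 2.03% of probe sets higher and 1.88% lower. Higher in Hom cells were Ikzf2 and Gata2, and lower were Lyl1, Cebpe and Cebpd. Between Hom and Het Ctrl cells 3 were called, Meis1 and Gata2 higher and Cebpe lower, against a background of 1.34% higher and 1.06% lower. The comparisons share the Hom-Ctrl arrays with each other and with the NMyc effect in Hom cells, so they are not independent of one another.

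Gata2, which maintains stem cells and is also high in mast cells, read 12.18 and 12.40 in Hom-Ctrl, 11.60, 11.80 and 11.55 in Het-Ctrl, and 11.68, 11.88 and 11.51 in WT-Ctrl arrays. Both Hom-Ctrl arrays lay above all 6 others. The difference was 0.61 (SE 0.16, adjusted p = 0.0431) against WT and 0.64 (SE 0.16, adjusted p = 0.0425) against Het cells. Ikzf2 read 9.90 and 10.01 in Hom-Ctrl, 9.19, 9.40 and 9.03 in Het-Ctrl, and 9.24, 9.49 and 8.78 in WT-Ctrl arrays. Here too Hom-Ctrl stood above the rest, and the difference was 0.79 against WT (SE 0.20, adjusted p = 0.0356) and 0.75 against Het cells (adjusted p = 0.0579, not called). Meis1 read 8.41 and 8.66 in Hom-Ctrl, 7.32, 7.63 and 7.73 in Het-Ctrl, and 7.68, 8.02 and 7.86 in WT-Ctrl arrays. Hom-Ctrl was again highest, and the difference was called against Het (0.98, SE 0.21, adjusted p = 0.0256) and not against WT cells (0.68, adjusted p = 0.0911).

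Among the lower factors, Lyl1, a close relative of TAL1, read 9.34 and 9.58 in Hom-Ctrl, 9.92, 10.28 and 10.44 in Het-Ctrl, and 9.95, 10.27 and 10.51 in WT-Ctrl arrays. Hom-Ctrl lay below both other groups, by 0.79 against WT (log2 difference -0.79, SE 0.20, adjusted p = 0.0367) and with -0.75 not called against Het cells (adjusted p = 0.0581). Cebpe read 8.95 and 8.88 in Hom-Ctrl, 9.67, 9.56 and 9.62 in Het-Ctrl, and 9.71, 9.27 and 9.80 in WT-Ctrl arrays. The separation was clear against Het (-0.70, SE 0.17, adjusted p = 0.038) and rested on a wider WT spread otherwise (-0.68, SE 0.17, adjusted p = 0.0331). Cebpd read 9.38 and 9.21 in Hom-Ctrl, 10.12, 9.84 and 9.66 in Het-Ctrl, and 10.01, 9.98 and 9.87 in WT-Ctrl arrays. It was lower than in WT cells (-0.66, SE 0.17, adjusted p = 0.0437), with no overlap with either group.

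**Figure D5:**
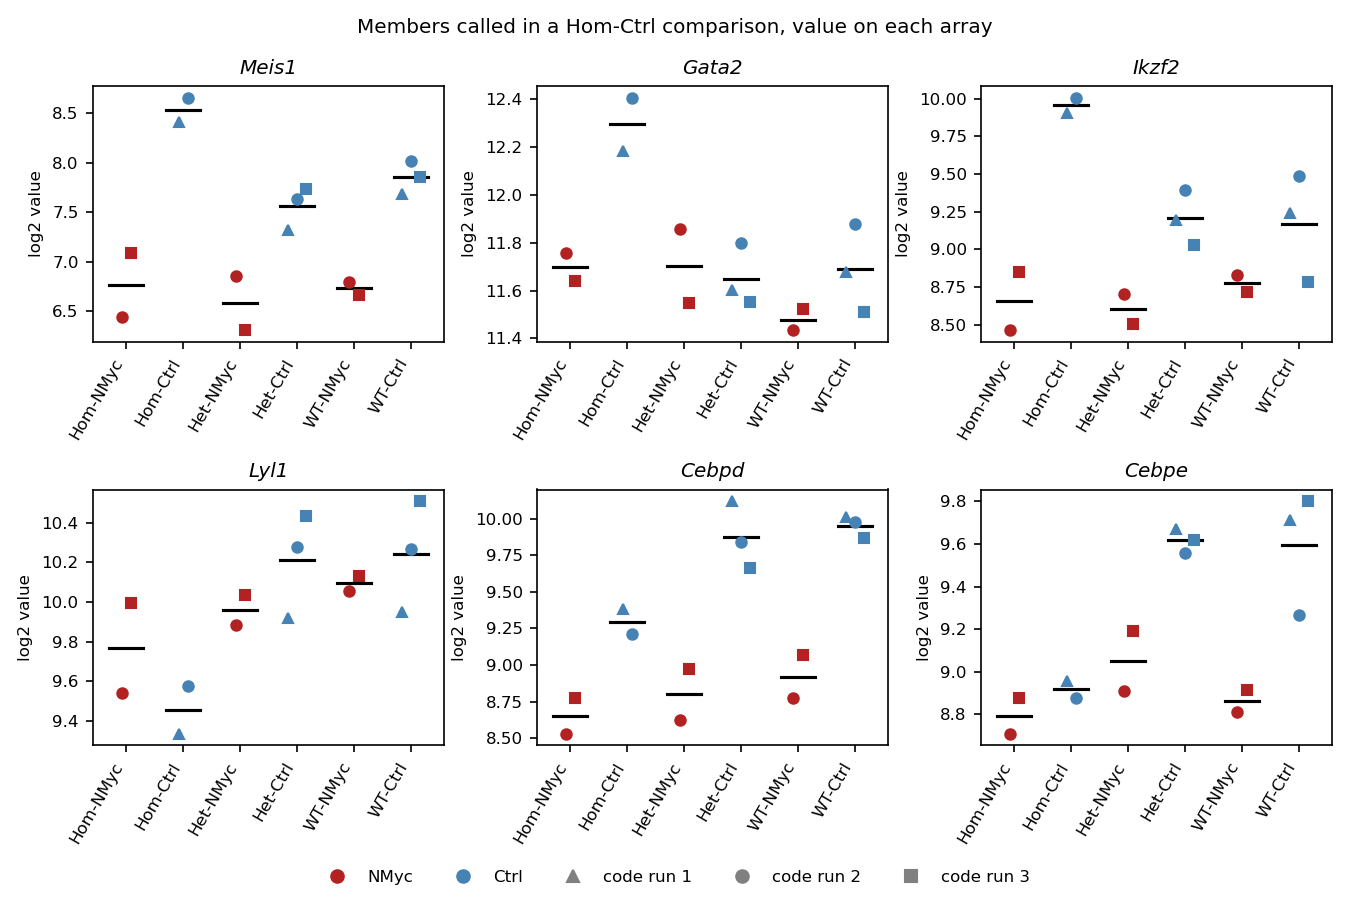
Log2 value on each array for the 6 factors called between Hom-Ctrl and WT-Ctrl or Het-Ctrl cells, by group (x axis; NMyc red, Ctrl blue), with the group mean as a line and the run of consecutive sample codes as the symbol. The Hom-Ctrl points lie above the other Ctrl points for Meis1, Gata2 and Ikzf2 and below them for Lyl1, Cebpd and Cebpe, and the 3 NMyc groups lie close together for Meis1 and Ikzf2.

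Each of these genotype calls was lost with at least 1 single array left out, and none changed direction. The share of all probe sets called moved as well. Over the 14 arrays left out in turn it was 0.446% to 4.18% against WT and 0.248% to 2.89% against Het cells. Lower counts therefore do not show a loss particular to these factors. Leaving out a Hom-Ctrl array also leaves only 1 in that group. Without Hom-Ctrl replicate 1, the array with the raised Mycn value, none of the 36 was called against WT or Het, with Gata2 at 0.72 (adjusted p = 0.0714), Ikzf2 at 0.84 (adjusted p = 0.0987), Lyl1 at -0.67 (adjusted p = 0.19), Cebpe at -0.72 (adjusted p = 0.0952) and Cebpd at -0.74 (adjusted p = 0.0906) against WT cells. Against Het cells Meis1 was then at 1.10 (adjusted p = 0.0545). Leaving out Hom-Ctrl replicate 2 or, for the comparison with WT, WT-Ctrl replicate 3 also left 0. Against WT cells, 1 was called without either WT-NMyc array, 2 without WT-Ctrl replicate 1, and 3 without WT-Ctrl replicate 2 or either Hom-NMyc array. Against Het cells, 1 was called without any 1 of the Het-Ctrl arrays and 5 without WT-Ctrl replicate 3. The 1 was Lyl1 without Het-Ctrl replicate 1 (adjusted p = 0.0416), Meis1 without replicate 2, and Gfi1b without replicate 3 (adjusted p = 0.0456). Without a WT-NMyc or Hom-NMyc array, Meis1 kept the call against Het cells and Gata2 and Cebpe lost it. No call remained in either comparison with only AFFX controls left out, with array weights, or with code runs 2 and 3 alone. The sign was the same within both code runs that hold Hom and WT arrays, with 0.50 and 0.53 for Gata2, 0.66 and 0.52 for Ikzf2, -0.61 and -0.69 for Lyl1, -0.76 and -0.39 for Cebpe, and -0.63 and -0.77 for Cebpd.

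The code run as a block changed which genotype calls were made. Klf2 read 8.09 and 7.18 in Hom-Ctrl, 9.21, 8.17 and 7.69 in Het-Ctrl, and 9.18, 8.34 and 7.83 in WT-Ctrl arrays. Across runs these ranges overlapped, and within runs 1 and 2 the Hom-Ctrl array was the lowest. Without the block Klf2 was not called against WT (-0.81, adjusted p = 0.31) or Het cells (-0.72, adjusted p = 0.42). With the block it was called lower in Hom-Ctrl than in WT-Ctrl (-1.04, adjusted p = 0.0083) and Het-Ctrl cells (-0.94, adjusted p = 0.0169). Gfi1b encodes a repressor that acts in the erythroid and megakaryocyte lineages. Against Het cells Gfi1b was also called with the block (0.71, adjusted p = 0.0397, against 0.61 and 0.118 without it). Lyl1 was called there with the block too (-0.63, adjusted p = 0.0247). Ikzf2 lost its call against WT cells with it (0.73, adjusted p = 0.052).

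Other lists moved in the same Hom minus WT comparison of Ctrl cells. Of 12 secondary granule genes 6 were lower and none higher, with a median of -0.725 (Cd177 -1.55 and Ltf -1.42), and their summed level was 14.84 to 14.92 in Hom-Ctrl and 15.23 to 15.36 in WT-Ctrl arrays. Of 13 monocyte and macrophage genes 3 were lower, including F13a1 (-1.69). Of 13 mast cell and basophil genes 3 were higher, including Ms4a2 (1.10), the receptor subunit for IgE, and the summed level was 14.97 to 15.20 in Hom-Ctrl and 14.58 to 14.86 in WT-Ctrl arrays. Of the second list of 54 blood factors, Zbtb16 (1.20) was higher and Klf13 (-0.56) and Batf (-0.55) were lower. Without Hom-Ctrl replicate 1, an alternative for these lists chosen after seeing the data, 4 secondary granule genes were lower (median -0.79, Cd177 -1.75 and Ltf -1.68), 3 monocyte and macrophage genes were lower (F13a1 -1.95) and 3 mast cell and basophil genes were higher (Ms4a2 1.40). None of the second list of blood factors was then called, with Zbtb16 at 1.22 (adjusted p = 0.0509), Klf13 at -0.58 (adjusted p = 0.0881) and Batf at -0.53 (adjusted p = 0.124). The part of these cells in the values of Gata2, Cebpe and Cebpd was not tested.

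With NMyc present the genotypes were not separated by the test. No factor was called between Hom-NMyc and WT-NMyc, Hom-NMyc and Het-NMyc, or Het-NMyc and WT-NMyc, where the background was 0% and the number of factors at an unadjusted p under 0.05 was 0. The 6 genes of the Ctrl comparison had Hom-NMyc minus WT-NMyc differences of 0.03 for Meis1 (95% interval -0.46 to 0.52), 0.22 for Gata2 (-0.14 to 0.59), -0.12 for Ikzf2 (-0.57 to 0.34), -0.33 for Lyl1 (-0.79 to 0.13), -0.27 for Cebpd (-0.66 to 0.13) and -0.07 for Cebpe (-0.45 to 0.32). With 2 arrays a group these intervals are wide. Meis1 itself read 6.44 and 7.09 in Hom-NMyc, 6.86 and 6.31 in Het-NMyc, and 6.80 and 6.66 in WT-NMyc arrays, with all 3 groups overlapping. Between Het-Ctrl and WT-Ctrl cells 0 of 36 factors were called by limma (background 0%), and Irf4 (-0.54) was the only 1 with an unadjusted p under 0.05.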

How the data were processed

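Per the labels' protocols, column-purified total RNA was turned into labelled single-stranded DNA for Affymetrix arrays. The submitters' processing notes name Affymetrix Expression Console as the tool with which the authors made the deposited log2 values, 1 for each probe set on each array. How it summarised and normalized the probes, and its version, is not given in the sources used here, so a shift of most transcripts in 1 direction may have been removed. The log2 unit was read from the values (2.237 to 13.47). No further scaling was applied, since the medians of the arrays lay within 0.084 of each other. Of 28846 probe sets, 6640 array controls, recognised by their IDs, were left out, 22206 were tested, and 19572 had a gene symbol in the platform annotation. For arrays, their number limits the precision.

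All 14 arrays entered 1 linear model with a mean for each of the 6 groups, in limma 3.58.1 for R 4.3.3 (lmFit and eBayes, 2-sided), 13 contrasts were taken, and p-values were adjusted over all tested probe sets by Benjamini and Hochberg, with calls at 0.05. Averaged effects weight the 3 genotypes equally. On simulated data with 22206 probe sets and the averaged contrast, 71 of 100 changes of 0.5 and 100 of 100 changes of 1 on the log2 scale were recovered. Recovery is shown for this contrast only, not for contrasts of single groups. In the data 33.6% of probe sets were called in it, a far larger share than was changed in the simulation. The members and gene lists were chosen with earlier results of these data known. All members may be named; values by array are given for those called with no overlap, those called in a genotype contrast, and the smallest p in each role group, and up to 4 genes of each other list by smallest p. Array values are also given for Lmo2, Ikzf1 and, in Ctrl cells, Klf2, which were chosen after their values were seen; other genes outside the rule are said to be so.

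Sample codes in the labels form 3 runs of consecutive numbers, which the labels do not call batches; run 1 holds Ctrl arrays only. Same-numbered arrays of different groups correlated in their deviations at -0.133 to 0.266 (median 0.0137, 31 pairs). Same-numbered Het-Ctrl and WT-Ctrl arrays correlated at 0.235 to 0.266 in all 3 pairs. Each of these pairs also shares a code run, so number and run cannot be told apart there. No other pair of groups correlated this highly in its same-numbered arrays. Arrays of the same code run correlated at a median of 0.0802 (9 of 28 pairs over 0.1), and those of different runs at -0.0674 (1 of 53 pairs over 0.1), so values within runs and with the run as a block are given where they change a call. Alternatives covered scaling, control and dim filters, variance models, blocks and left-out arrays.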

Additional observations from a re-analysis of the deposited data

How the results depend on the processing

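Over 54 called results of single factors, 1280 alternative values were computed, of which 1100 kept direction and call, 180 lost the call and 0 reversed. In the averaged comparison the number called ranged from 14 to 20 when single arrays were left out, and was 20 with quantile normalization, 17 with median centring and 14 with code runs 2 and 3 alone. Lmo2, Ikzf1 and Cebpb lost the call under some of the 23 alternatives and the other 13 factors under none. Single arrays left out gave 7 to 13 in WT, 5 to 12 in Het and 5 to 7 in Hom cells, 0 to 4 between Hom-Ctrl and WT-Ctrl, and 0 to 5 between Hom-Ctrl and Het-Ctrl. The NMyc effect in Hom cells had 4 calls with code runs 2 and 3 alone. Between Hom-Ctrl and WT-Ctrl, 0 were called with only AFFX controls left out, with array weights, with code runs 2 and 3 alone, and with only the arrays compared. Between Hom-Ctrl and Het-Ctrl the first 3 of these also gave 0, only the arrays compared gave 1, and trended robust variances and the code run as a block gave 6 each. The share of all probe sets called also moved when single arrays were left out. It was 29.9% to 34.7% averaged, 10.7% to 19.3% in WT, 11.2% to 20.4% in Het and 8.95% to 19% in Hom cells. Between Ctrl groups it was 0.446% to 4.18% for Hom against WT and 0.248% to 2.89% for Hom against Het. Those counts therefore do not show changes particular to the factors. Blocking on code run gave 1.55% higher and 1.31% lower for Hom-Ctrl against Het-Ctrl. For the other settings no share is given here, so their counts are not set against a background. The causes were not tested.

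With the replicate block, the counts were 20 averaged, 13 in WT, and 4 between Hom-Ctrl and WT-Ctrl. In the last comparison Lyl1 and Cebpd kept the call, Gata2, Cebpe and Ikzf2 lost it, and Gfi1b and Klf2 were newly called. Between Het-Ctrl and WT-Ctrl this block left 0 calls, so no call changed there. Same-numbered arrays share a code run within the Ctrl groups and within the NMyc groups. Between NMyc and Ctrl they come from different runs and share only a number. No setting gave a call among the factors in a contrast of NMyc groups or in a difference of NMyc effects. The alternative with another probe set of the same symbol was not run, since no factor had several. Limits are 2 or 3 arrays a group, an unstated normalization, and a single Hom-Ctrl pair of which 1 array has raised Mycn.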

Other observations

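The Ctrl arrays of Id2 differed by run of sample codes. Id2 read 10.52 (Het-Ctrl) and 10.28 (WT-Ctrl) in run 3, against 11.14 to 11.45 in the 6 Ctrl arrays of runs 1 and 2. Within runs 2 and 3, NMyc minus Ctrl differences ranged from -2.08 to -0.52 for Klf2 and from -1.97 to -1.09 for Id2 over the 5 pairs of a genotype and a run, so all were negative. The runs were not named as batches in the labels.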
